A study of Caenorhabditis elegans with 20 samples.

Results

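The genes described here are the neuropeptide precursor genes of the flp and nlp families in Caenorhabditis elegans, a nematode worm. The family was taken up with earlier results of these data known, and its members were taken by name, without their values: every row of the deposited table whose gene ID maps to a symbol beginning with flp- or nlp-, apart from nlp-24 to nlp-34. The rule gave 91 of 46904 gene IDs, of which 31 were flp and 60 were nlp genes. Poly(A) RNA of whole young adults was sequenced in 4 groups with 3 replicates each: ns889 animals with mold, ns889 animals without mold, wild-type (WT) animals with mold and WT animals without mold. The mold was Penicillium brevicompactum, and animals of all 4 groups grew for 48 hours after L1 arrest at 20 C on NGM plates that carried Escherichia coli OP50. The labels give ns889 as an allele without naming its gene, so the level of the affected gene could not be checked. They do not say whether replicates were separate cultures, and the p-values below therefore measure the spread between these samples.

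Neuropeptides are short peptides that neurons, and in the worm also gut cells, release to signal to other cells. They are made as longer precursors, which convertases such as EGL-3 cut, carboxypeptidases such as EGL-21 trim and amidating enzymes finish, before the peptides leave the cell from dense core vesicles with the help of UNC-31. flp genes encode FMRFamide-like peptides, nlp genes encode the other, more varied neuropeptide-like proteins, and both act mainly on G protein-coupled receptors until peptidases such as neprilysins break them down. The question the design puts to these genes is whether their transcripts changed on mold, in either genotype, or between the genotypes.

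The replicates held 95998037 to 115940062 counts. Within a gene, values are given as CPM (counts relative to the library total, scaled between libraries by TMM), and a count of 3, taken here as the detection floor, equals 0.0259 to 0.0313 CPM. Between genes, levels are given as TPM, in which counts are divided by the gene length of the deposited table. Replicate 1 of WT without mold lay farthest from the rest of its group (root mean square log2 distance 0.424), ahead of replicates 3 and 1 of WT with mold (0.355 and 0.328), while the other 9 replicates lay at 0.152 to 0.262. Replicate 1 of WT without mold and replicate 3 of WT with mold are called here the libraries that stood apart. All 20 neuron markers examined, synaptic and transmitter genes such as snb-1 (synaptobrevin), were measured, and their summed level was 414 to 454 CPM in ns889 with mold, 434 to 441 CPM in ns889 without mold, 428 to 483 CPM in WT with mold and 429 to 450 CPM in WT without mold.

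Of the 91 neuropeptide genes, 87 held enough counts to be tested in a set of 16980 genes tested. The 4 that did not were nlp-46 (0 to 10 counts per replicate), flp-23 (0 to 3), nlp-22, whose peptide acts in larval sleep (0 to 1), and nlp-39, which had 0 counts in each of the 12 replicates. The family spanned a wide range of levels. Over the 12 replicates, 41 genes averaged more than 10 TPM (17 flp and 24 nlp), 38 lay between 1 and 10 TPM (13 flp and 25 nlp) and 12 lay at or below 1 TPM (1 flp and 11 nlp). The median was 10.9 TPM for flp genes and 6.80 TPM for nlp genes, with the 4 untested genes included, beside 9.32 TPM for all genes tested.

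The transcripts of a few genes made up much of the total. The 10 most abundant genes held 48.4% ± 1.83 of the family's summed TPM (mean and SD over the 12 replicates). nlp-40, whose peptide is released from the intestine and starts the enteric muscle contraction of the defecation cycle through the receptor AEX-2, averaged 156.3 TPM over the 12 replicates. nlp-36 averaged 156.0 TPM, and nlp-40 was the higher of the pair in 6 of the 12 replicates, so that their order was not separable. These lay far above the third gene, flp-28, with 78.6 TPM.

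Below flp-28, the next flp genes were flp-10 with 57.5 TPM, which encodes a ligand of the egg-laying inhibitor EGL-6, and flp-14 with 49 TPM. They were followed by flp-24 (41.4 TPM), which acts in stress-induced sleep, and flp-6 (40.7 TPM), which is made in the ASE taste neurons. flp-28 exceeded flp-10, and flp-6 exceeded flp-1 (31.4 TPM), in all 12 replicates, whereas flp-10 exceeded flp-14 in 9 and flp-24 exceeded flp-6 in 7 of the 12. flp-9 (25.2 TPM), flp-16 (23.9 TPM), flp-4 (22.1 TPM) and flp-5 (14.4 TPM) completed the 10 highest. Among these last genes, flp-9 was above flp-16 in 8 replicates and flp-16 above flp-4 in 7, while flp-4 was above flp-5 in all 12. flp-5 was above the next gene, flp-17 (14.3 TPM), in 6 of the 12, so the last place was not separable.

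Among the nlp genes, nlp-20 (42.8 TPM), nlp-49 (38.6 TPM) and nlp-9 (34.7 TPM) followed nlp-36. nlp-49 encodes ligands of the stress-related receptor SEB-3. Their order was not stable: nlp-20 exceeded nlp-49 in 5 of the 12 replicates and nlp-49 exceeded nlp-9 in 7. nlp-13 (30.3 TPM), nlp-14 (29.1 TPM), nlp-15 (23.6 TPM), nlp-21 (22.8 TPM) and nlp-47, which encodes a peptide related to gonadotropin-releasing hormone (21.3 TPM), came next. nlp-12, a cholecystokinin-like gene of the DVA stretch-sensing neuron, averaged 20.0 TPM and was not separable from nlp-47, which exceeded it in 5 of the 12 replicates.

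**Figure D1:**
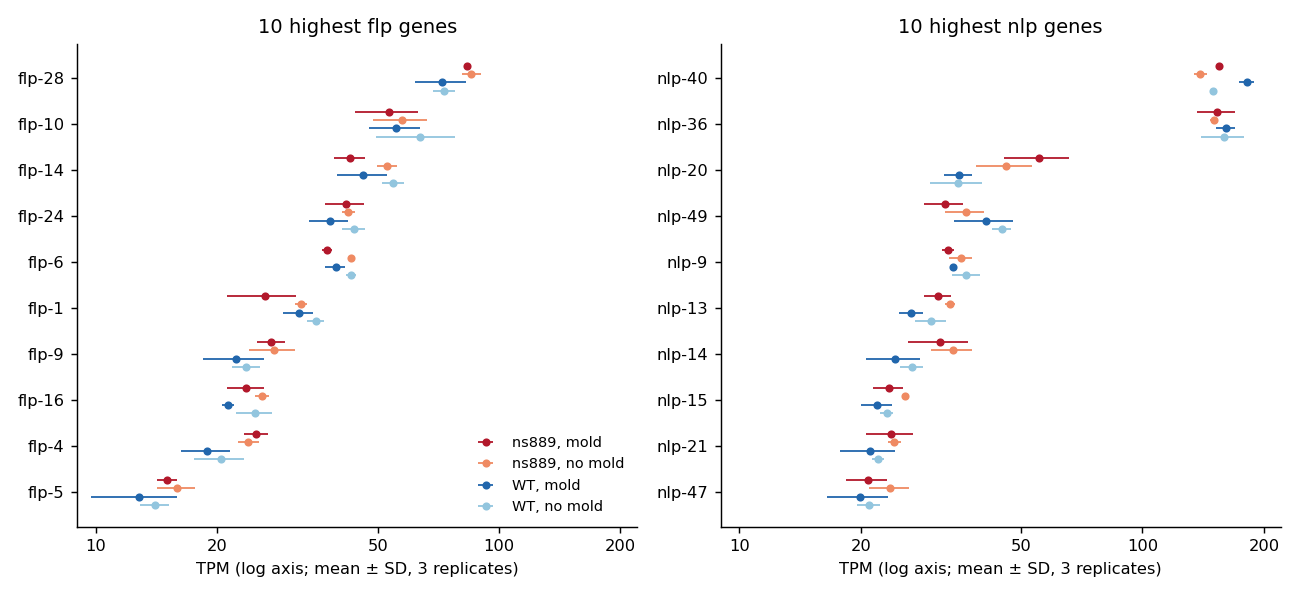
Levels of the 10 most abundant flp genes (left) and nlp genes (right) in TPM on a log axis; points are means and bars SD over 3 replicates of ns889 with mold, ns889 without mold, WT with mold and WT without mold. nlp-40 and nlp-36 lie near 156 TPM, and within a gene the 4 groups lie close together compared with the range between genes.

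Neuropeptide genes were frequent on the X chromosome, which held 32 of the 91 (35.2%), against 14.2% of all genes tested. By family, 13 of the 31 flp and 19 of the 60 nlp genes lay there. Several lie inside larger genes on the opposite strand: flp-2, flp-3 and flp-28 lie within W07E11.1 (chromosome X, 10084627 to 10104252 in WBcel235), and nlp-2, nlp-22, nlp-23 and nlp-45 lie within T01B6.1 (chromosome X, 2335684 to 2348635). These 7 genes share 0 exon bases with their hosts. In all, 9 of the 91 genes share exon bases with another gene, at most 18.5% of the exon length (nlp-78). For those bases, without a stated strand setting, reads of both genes cannot be told apart.

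The median within-group SD was 0.168 on the log2 scale for the neuropeptide genes tested, against 0.156 for all genes tested. The highest of a gene's 12 CPM values was 1.82 times its lowest at the median. For 74 to 76 of the 87 genes, in each of the 4 comparisons between groups, the 95% interval of the fold change lay within 2-fold in both directions. This is 85.1% to 87.4%, against 68.2% to 76.6% of all genes tested.

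The first comparison asked what mold did to these genes in ns889 animals. One neuropeptide gene, flp-8, fell on mold, and no neuropeptide gene rose. Most others were slightly below their level without mold: 73 of the 87 log2 fold changes were below 0, with a median of -0.14, against -0.02 for all genes tested. The single call is 1.15% of the 87 genes, beside 3.14% of all genes tested (1.86% higher and 1.28% lower), by edgeR's quasi-likelihood test at an adjusted p under 0.05. At an unadjusted p under 0.05 there were 9 neuropeptide genes (2 higher and 7 lower), or 10.3% against 13.3% of all genes tested. DESeq2 called 4 of the 87, all lower, beside 983 of all 16980 genes tested. Summed over the family, the level was 605 ± 42.4 CPM with mold and 662 ± 9.96 CPM without mold (SD, n = 3 each). Because RNA came from whole animals, fewer cells of a type and less RNA per cell cannot be told apart.

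flp-8 encodes an FMRFamide-like precursor and is known as a marker of the oxygen-sensing URX neurons (WBGene00001451, chromosome X, 14881419 to 14882300 in WBcel235, plus strand). It had 3.34, 3.98 and 3.79 CPM in the 3 ns889 replicates with mold, against 6.26, 7.07 and 6.19 CPM in the 3 without mold. All replicates with mold lay below all replicates without. The log2 fold change was -0.81 ± 0.14 (SE), with an edgeR adjusted p of 0.00625 and a 95% interval of -1.11 to -0.52. It passed the threshold in each of the 18 alternative fits. flp-8 shares 2.81% of its exon bases with F31F6.11, a gene on the opposite strand.

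In WT animals, flp-8 had 4.87, 4.69 and 4.05 CPM with mold, against 5.74, 7.09 and 6.30 CPM without mold. Here too the groups did not overlap, with a log2 fold change of -0.49 ± 0.14 that did not pass the threshold (edgeR adjusted p = 0.0514). It passed under RLE size factors (0.0399), with DESeq2 (0.00235), when replicate 1 of WT with mold (0.0377) or of WT without mold (0.0124) was left out, and without both libraries that stood apart (0.0237). The difference of the responses, ns889 minus WT, was -0.32 ± 0.19 (edgeR adjusted p = 0.870), so a larger response in ns889 animals was not shown. The genotypes did not differ detectably in flp-8 without mold, with a log2 difference of 0.03 ± 0.13 (95% interval -0.26 to 0.32).

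**Figure D2:**
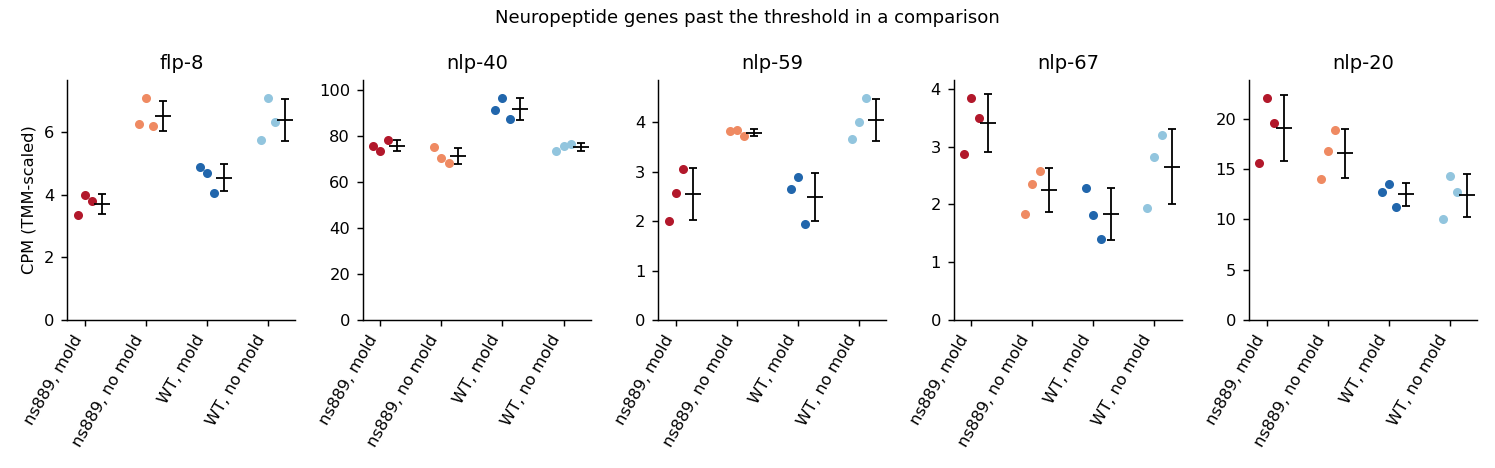
TMM-scaled CPM of the 5 neuropeptide genes that passed the threshold in at least 1 comparison; coloured points are replicates, and black dashes with bars are means and SD of the 3 replicates of each group. flp-8 is lower with mold in both genotypes, and nlp-40 is highest in WT with mold at 87.6 to 96.8 CPM.

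Other genes moved by less than the test could call in ns889 animals. flp-1, a precursor from the AVK interneurons that acts on locomotion, had 10.7, 11.4 and 15.4 CPM with mold, against 16.8, 15.5 and 15.7 CPM without mold. The log2 fold change of flp-1 was -0.36 ± 0.14 (edgeR adjusted p = 0.248). Replicate 3 with mold was nearly level with the replicates without mold, and without it the value was -0.54 (edgeR adjusted p = 0.0462). flp-1 passed in no other alternative. Since the replicate left out was the one that differed, that fit cannot decide whether flp-1 fell. flp-6 (-0.26 ± 0.08) and flp-14 (-0.37 ± 0.12) likewise passed only in other fits. Without the 2 WT libraries that stood apart, where more genes passed in all, their edgeR adjusted p was 0.0293 and 0.0168. flp-6 also passed with DESeq2 (0.0267), and flp-14 in no other alternative. flp-18, whose peptides act on the receptors NPR-1, NPR-4 and NPR-5, had 8.47 to 8.74 CPM with mold and 9.09 to 9.87 CPM without mold, a log2 fold change of -0.14 ± 0.11. flp-21, a ligand gene of the aggregation receptor NPR-1, and nlp-12 overlapped between the groups, with log2 fold changes of -0.17 ± 0.23 and -0.08 ± 0.21.

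In all, 15 of the 87 genes did not overlap between the ns889 groups, 1 higher and 14 lower with mold. This is 17.2%, below the 31.6% of all genes tested.

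The second comparison asked the same of WT animals. nlp-40 rose on mold, nlp-59 fell, and none of the 30 flp genes tested passed. The 2 calls are 2.3% of the 87 genes, beside 6.27% of all genes tested (1.67% higher and 4.6% lower). At an unadjusted p under 0.05 there were 6 neuropeptide genes (1 higher and 5 lower), 6.90% against 24.6% of all genes tested. DESeq2 called 5 of the 87 (1 higher and 4 lower), beside 2287 of all 16980 genes tested. The median log2 fold change was -0.12, with 67 of 87 genes below 0, against 0.01 for all genes tested. This median rested in part on 1 library, since it was -0.02, with 46 of 87 genes below 0, when replicate 3 of WT with mold was left out. It was -0.18 when replicate 2 of that group was left out.

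nlp-40 (WBGene00022276, chromosome I, 11495 to 16837, plus strand) had 91.2, 96.8 and 87.6 CPM in WT with mold, against 73.4, 75.5 and 76.7 CPM in WT without mold. Every replicate with mold was above every replicate without. The increase was 1.22-fold, a log2 fold change of 0.29 ± 0.06 (edgeR adjusted p = 0.0285). It was small but well above the spread, since the SD of the gene was 4.63 CPM with mold and 1.66 CPM without mold (n = 3 each). The call was lost in 5 of 18 alternatives: under a block for the replicate number (edgeR adjusted p = 0.0512), and when replicate 2 of ns889 without mold (0.0520), replicate 2 of WT with mold (0.0863) or replicates 2 or 3 of WT without mold (0.0958 and 0.0952) was left out. It passed without both libraries that stood apart, where more genes passed in all (log2 fold change 0.30, edgeR adjusted p = 0.00435).

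nlp-59 (WBGene00008522, chromosome V, 14971436 to 14972419, plus strand) had 2.65, 2.89 and 1.94 CPM in WT with mold, against 3.66, 4 and 4.5 CPM in WT without mold. The groups did not overlap, and the log2 fold change was -0.70 ± 0.19 (edgeR adjusted p = 0.0482). This call was close to the threshold and passed in 7 of 18 alternatives. It was lost under the block (0.0819), with only the first sequencing run of each replicate (0.0536), and without any 1 of 9 replicates, with edgeR adjusted p of 0.0510 to 0.193 (every replicate other than replicate 1 of ns889 with mold and of either WT group). In ns889 animals nlp-59 had 2.01, 2.58 and 3.05 CPM with mold, against 3.82, 3.84 and 3.72 CPM without mold. Neither did those groups overlap, and the log2 fold change of -0.58 ± 0.19 did not pass (edgeR adjusted p = 0.155); it passed with DESeq2 (0.0429) and without both libraries that stood apart (0.0274).

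Without any overlap, 7 of the 87 genes separated the WT groups, 1 higher and 6 lower with mold. This is 8.05%, against 17.5% of all genes tested. In total 4 genes were lower with mold without overlap in both genotypes, flp-8, nlp-59, nlp-51 and nlp-4. How many of all genes tested were so was not counted, so no background stands beside this number. nlp-51 and nlp-4 are named because they were among these 4, after their values were seen. nlp-51 had 3.84, 3.71 and 4.22 CPM in ns889 with mold against 6.25, 5.27 and 5.30 CPM without, and 5.07, 5.91 and 4.35 CPM in WT with mold against 6.62, 6.56 and 7.02 CPM without. Its log2 fold changes of -0.51 ± 0.14 in ns889 and -0.40 ± 0.14 in WT had edgeR adjusted p of 0.0768 and 0.104. nlp-4 had 4.21, 5.16 and 4.16 CPM in ns889 with mold against 6.01, 5.62 and 5.34 CPM without, and 4.10, 3.23 and 2.14 CPM in WT with mold against 4.18, 5.03 and 6.52 CPM without. Its log2 fold changes were -0.33 ± 0.22 in ns889 and -0.73 ± 0.23 in WT (edgeR adjusted p = 0.564 and 0.0696). In the ns889 response nlp-51 passed with DESeq2 (0.00518), with the first run only (0.0434), when replicate 3 of WT with mold was left out (0.0444) and without both libraries that stood apart (0.0141). In the WT response it passed with DESeq2 (0.0193), and nlp-4 passed with DESeq2 (0.0101), when replicate 1 of WT with mold (0.0223) or of WT without mold (0.0139) was left out, and without both libraries (0.0172).

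The responses of both genotypes can be set side by side, since they share no samples. Of the 87 genes, 61 were below 0 in both responses, 8 were above 0 in both and 18 had opposite signs. Over all 16980 genes tested, 9135 were below 0 in ns889 and 8319 in WT, and the joint count was not made. The WT signs rested in part on replicate 3 of WT with mold, as given above. The test of the difference of the responses called no neuropeptide gene, beside 0.13% of all genes tested (0.0353% higher and 0.0942% lower). At an unadjusted p under 0.05 it had 2 neuropeptide genes (1 higher and 1 lower), nlp-67 and nlp-40, while all genes tested gave 4.44%. DESeq2 also called none. For 68 of the 87 genes (78.2%) the 95% interval of that difference lay within 2-fold, against 62.9% of all genes tested.

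**Figure D3:**
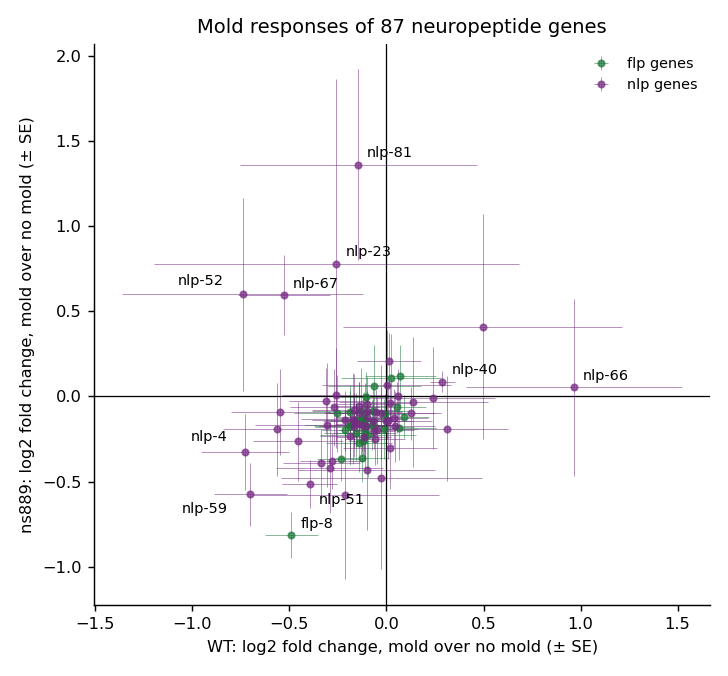
Log2 fold change on mold in WT (x axis) and ns889 (y axis) for the 87 neuropeptide genes tested, with bars of 1 SE; flp genes are green and nlp genes purple, and the named points include the most outlying ones. Most points lie slightly below 0 on both axes, and the points farthest from the centre with long bars, such as nlp-81, are genes of low level.

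Some other lists also lay below 0 on mold, and some above. The neuron markers had median log2 fold changes of -0.16 in ns889 and -0.14 in WT, with none of the 20 past the threshold in either (1 each at an unadjusted p under 0.05), and the body wall muscle markers had medians of -0.18 and -0.24. The 5 pharynx markers were lower still, with medians of -0.42 in ns889 and -0.37 in WT and every marker below 0 in both. The medians of the intestine markers were 0.24 in ns889, with 6 of 6 above 0, and 0.05 in WT, those of the oocyte and germline markers 0.12 and 0.23, and those of the epidermis markers 0.08 and 0.03. The most abundant neuron markers did not follow the medians: snb-1 had 0.02 ± 0.13 in ns889 and 0.11 ± 0.13 in WT, and tdc-1, an enzyme gene of octopamine synthesis, had 0.23 ± 0.18 and 0.34 ± 0.18. When replicate 1 of WT without mold was left out, tdc-1 rose in WT (0.63, edgeR adjusted p = 0.00253). By library, relative to the mean of all 12, the neuropeptide genes were lowest in WT with mold replicate 3 (median log2 deviation -0.27), and so were the muscle markers (-0.34), pharynx markers (-0.42) and sperm markers (-1.05). The summed sperm markers were 252 to 306 CPM in ns889 with mold, 342 to 370 CPM in ns889 without mold, 135 to 233 CPM in WT with mold and 238 to 388 CPM in WT without mold. In the WT response 5 of 9 sperm markers fell (55.6%, against 6.27% of all genes tested, 4.6% lower), with all 9 below 0 in every alternative. That count was 2 under the block, 8 with DESeq2 or without both libraries that stood apart, and 0 to 9 when 1 replicate was left out: 0 without replicate 2 of WT with mold or replicates 2 or 3 of WT without mold, 1 without replicate 3 of WT with mold, 2 or 3 without replicate 3 of ns889 with mold or any 1 of ns889 without mold, 8 without replicate 1 of WT without mold and 9 without replicate 1 of WT with mold. None of the 10 oocyte and germline markers passed there, 8 of them lay above 0, and the 2 at an unadjusted p under 0.05 were both higher with mold. The part of these shifts in the neuropeptide values was not tested.

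**Figure D4:**
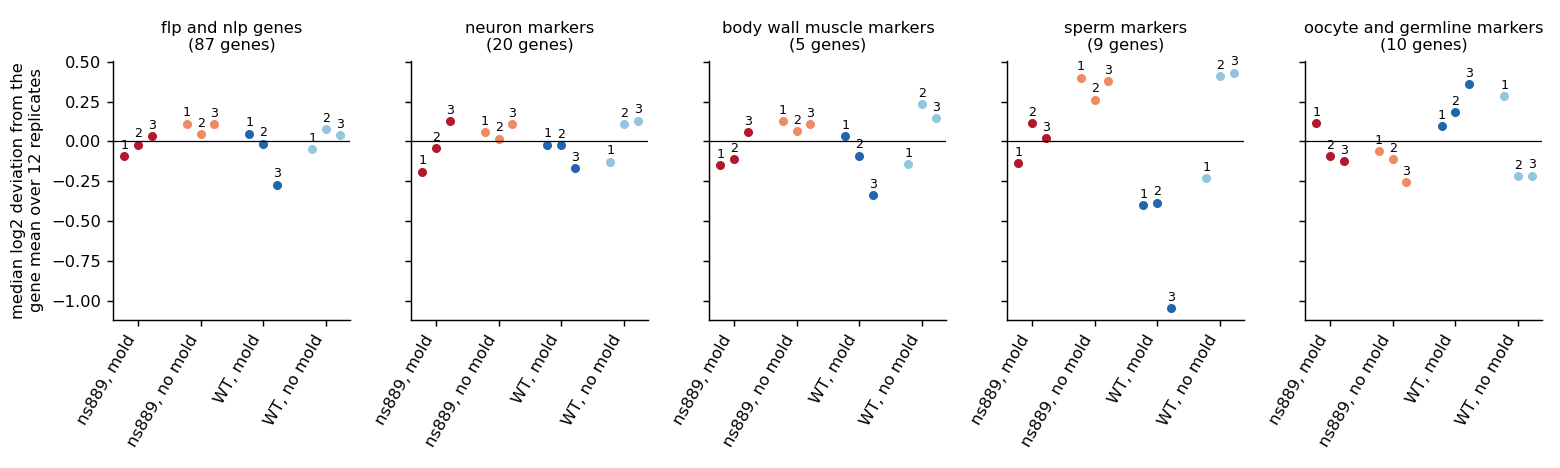
Median log2 deviation from each gene's mean over 12 replicates, for the 87 neuropeptide genes and 4 lists of marker genes; each point is 1 replicate, numbered, in ns889 with mold, ns889 without mold, WT with mold and WT without mold. WT with mold replicate 3 is the lowest point for the neuropeptide genes (-0.27), the muscle markers (-0.34) and the sperm markers (-1.05).

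The third comparison set ns889 against WT animals without mold, and here no neuropeptide gene passed, beside 2.87% of all genes tested (2.42% higher and 0.453% lower). At an unadjusted p under 0.05 by edgeR there were 7 genes, each higher in ns889, or 8.05% against 11.8% of all genes tested, and DESeq2 called none. The count was 0 in all 18 alternatives. The median log2 difference was 0.06, with 49 genes above and 38 below 0. It was 0.03, with 40 below 0, when replicate 1 of WT without mold was left out, and 0.10, with 31 below 0, when replicate 3 of that group was left out. Without overlap, 17 genes were higher and 3 lower in ns889, 23% against 18.3% of all genes tested. For all 41 genes that averaged over 10 TPM, the 95% interval lay within 2-fold, and their log2 differences ran from -0.27 to 0.42.

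The gene at the upper end of that range was nlp-20. flp-28 did not overlap between the genotypes, at 35.3, 32.8 and 31 CPM in ns889 without mold, against 24.9, 29.4 and 28.9 CPM in WT without mold. Its log2 difference of 0.25 ± 0.11 did not pass (edgeR adjusted p = 0.402). nlp-62, named after its values were seen, had 0.515, 0.482 and 0.755 CPM in ns889 without mold, against 0.270, 0.316 and 0.236 CPM in WT without mold, a log2 difference of 1.09 ± 0.31 (edgeR adjusted p = 0.105). On mold it had 0.536, 0.508 and 0.696 CPM in ns889 and 0.463, 0.236 and 0.267 CPM in WT, a log2 difference of 0.84 ± 0.31 (edgeR adjusted p = 0.128). It passed there when WT with mold replicate 1 was left out (log2 difference 1.20, edgeR adjusted p = 0.0363).

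The fourth comparison set ns889 against WT animals on mold. There were 3 genes past the threshold: nlp-67 and nlp-20 were higher in ns889 and nlp-40 was lower. This is 3.45% of the 87 genes, against 6.73% of all genes tested (5.12% higher and 1.61% lower). At an unadjusted p under 0.05 there were 12 (7 higher and 5 lower), 13.8% against 25% of all genes tested. The median log2 difference was 0.05, and it was -0.07 and 0.14 when replicate 3 and replicate 2 of WT with mold were left out in turn. Without overlap, 8 genes were higher and 4 lower in ns889, 13.8% against 31.4% of all genes tested. This comparison shares its ns889 and WT replicates on mold with the first and second comparisons. Marker lists also moved between the genotypes. On mold all 10 oocyte and germline markers were lower in ns889 (median -0.28, 20% past the threshold). All 9 sperm markers were higher there (0.68, 22.2%). Without mold all 10 oocyte and germline and all 6 intestine markers were lower (-0.15 and -0.23, none past it). The neuron markers had medians of -0.004 without and 0.04 with mold, none past it. The part of these shifts in the neuropeptide values was not tested.

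nlp-40 had 75.9, 73.4 and 78.1 CPM in ns889 with mold, against the 91.2, 96.8 and 87.6 CPM in WT with mold given above. The log2 difference was -0.28 ± 0.06 (edgeR adjusted p = 0.0191). It held in 15 of 18 alternatives and was lost without ns889 with mold replicate 1 (0.0632), ns889 with mold replicate 2 (0.121) or WT with mold replicate 2 (0.0951). In ns889 without mold nlp-40 had 75.3, 70.3 and 68.5 CPM, so the response of ns889 was 0.09 ± 0.06 and did not pass (edgeR adjusted p = 0.583). All 3 replicates of WT with mold lay above all 9 replicates of the other groups, but the difference of the responses, -0.20 ± 0.09, had an edgeR adjusted p of 0.870.

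nlp-67 (WBGene00011227, chromosome X, 16184370 to 16185419, plus strand) had 2.87, 3.85 and 3.5 CPM in ns889 with mold, against 2.29, 1.82 and 1.40 CPM in WT with mold. The log2 difference was 0.89 ± 0.24 (edgeR adjusted p = 0.0425). Without mold it had 1.83, 2.36 and 2.58 CPM in ns889 and 1.93, 2.81 and 3.20 CPM in WT, which overlapped. Its log2 fold change on mold was 0.60 ± 0.23 in ns889 and -0.53 ± 0.24 in WT, with edgeR adjusted p of 0.272 and 0.193. The response in ns889 passed without both libraries that stood apart (0.0382), and that in WT when replicate 1 of WT without mold was left out (0.0333). The difference of these responses was 1.12 ± 0.33 (edgeR adjusted p = 0.752). The call between the genotypes passed in 8 of 18 alternatives. It was lost under the block (0.0659), with the first run alone (0.0551), and without any 1 of 8 replicates (0.0564 to 0.137), namely all 3 of ns889 with mold, replicates 2 and 3 of ns889 without mold, replicates 2 and 3 of WT with mold and replicate 2 of WT without mold. It passed without both libraries that stood apart, where more genes passed in all, at 0.73 (edgeR adjusted p = 0.0290).

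nlp-20 (WBGene00003758, chromosome IV, 7642052 to 7643096, minus strand) had 15.6, 22.1 and 19.6 CPM in ns889 with mold, against 12.8, 13.5 and 11.2 CPM in WT with mold. The log2 difference was 0.61 ± 0.17 (edgeR adjusted p = 0.0459). Without mold the values overlapped, with 14, 16.8 and 18.9 CPM in ns889 and 10.1, 14.3 and 12.7 CPM in WT, a log2 difference of 0.42 ± 0.17 (edgeR adjusted p = 0.301). The call on mold was lost in 8 of 18 alternatives, each of which left out 1 replicate (0.0545 to 0.155): replicates 2 and 3 of ns889 with mold, replicates 2 and 3 of ns889 without mold, all 3 of WT with mold, or replicate 3 of WT without mold. Mold itself moved nlp-20 by 0.21 ± 0.16 in ns889 and 0.01 ± 0.17 in WT, neither past the threshold.

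nlp-49 and flp-1 were lower in ns889 on mold by log2 differences of -0.39 ± 0.14 and -0.33 ± 0.14 that did not pass (edgeR adjusted p = 0.125 and 0.163). nlp-49 had 13.3, 12.5 and 15.8 CPM in ns889 with mold and 20.8, 19.2 and 14.5 CPM in WT with mold. Without WT with mold replicate 3, whose value lay within the ns889 range, the difference was -0.53 (edgeR adjusted p = 0.0397). nlp-49 otherwise passed only without both libraries that stood apart (0.0108), a fit that drops the same replicate. flp-1 passed only without ns889 with mold replicate 3 (-0.51, edgeR adjusted p = 0.0452). Since these fits drop the replicate that differed, they cannot decide whether either gene was lower.

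**Figure D5:**
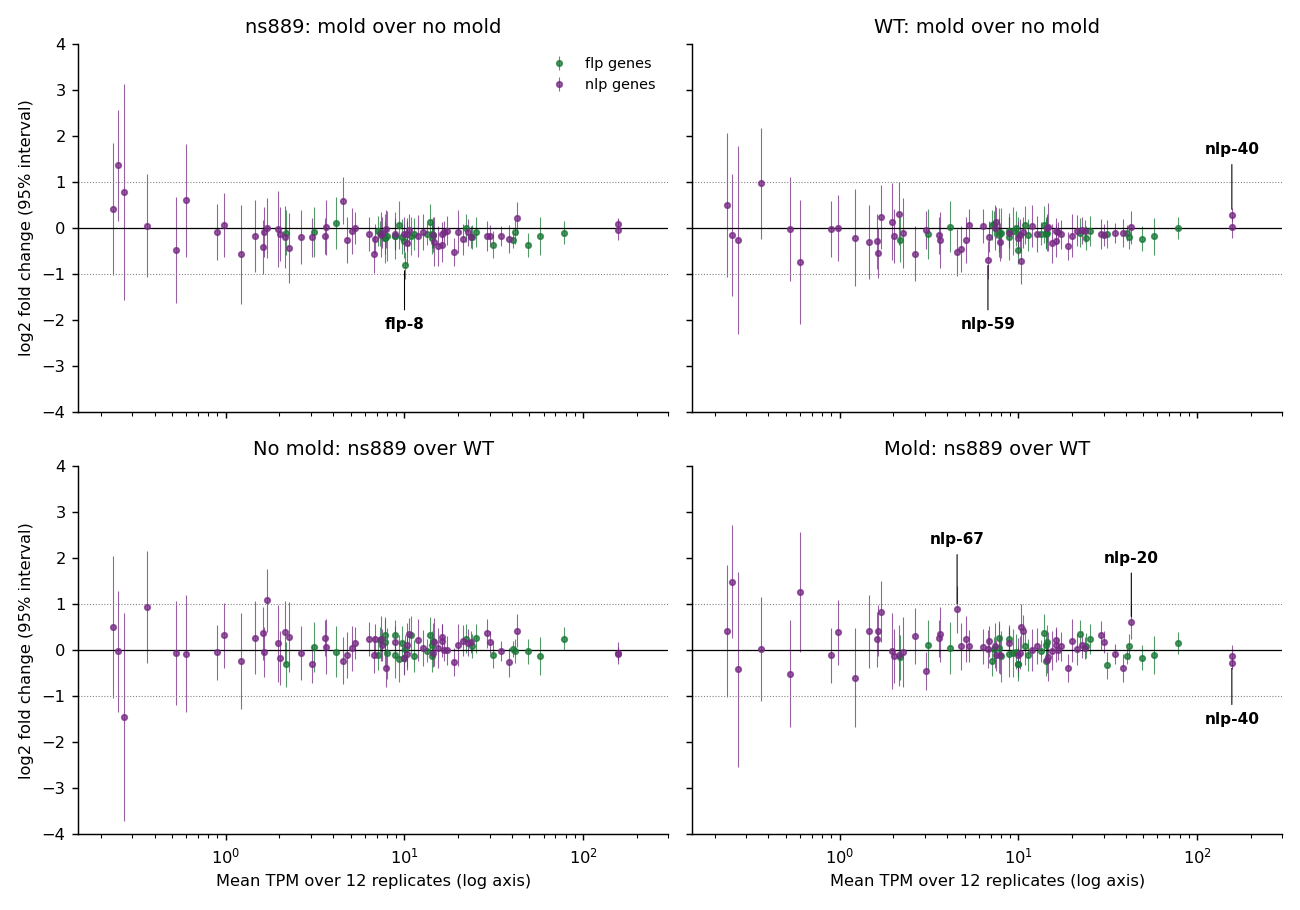
Log2 fold change with its 95% interval against mean TPM (log axis) for the 87 neuropeptide genes, 1 panel per comparison of groups; dotted lines mark 2-fold, and the genes past the threshold are named. Genes over 10 TPM lie between -0.81 and 0.61 in all 4 panels, and the widest intervals belong to genes near or below 1 TPM.

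Fold changes above 2-fold occurred in 4 genes of low level (at most 1.70 TPM), none of which passed the threshold in the 4 comparisons. nlp-81, at 0.251 TPM, exceeded 2-fold on mold in ns889, with 0.309, 0.323 and 0.0835 CPM with mold and 0.124, 0.11 and 0.0402 CPM without. Its log2 fold change was 1.36 ± 0.56 (edgeR adjusted p = 0.301). nlp-23 and nlp-62 exceeded 2-fold between the genotypes without mold, and nlp-81 and nlp-52 on mold, and these genes were named after their values were seen. In the WT response no neuropeptide gene exceeded 2-fold.

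Genes that act on the peptides were examined alongside, as lists of the same pathway. Of 11 genes for peptide processing, none passed on mold in ns889 (1 at an unadjusted p under 0.05) or in WT (0), by edgeR. Between the genotypes 2 of the 11 passed without mold, 18.2% against 2.87% of all genes tested. With mold 1 passed, 9.09% against 6.73%. aex-5 was the gene that passed in both. aex-5 encodes a convertase needed for the same defecation program as nlp-40, and it had 34.9, 27.4 and 33.4 CPM in ns889 without mold, against 14.2, 18.2 and 16.8 CPM in WT without mold. On mold it had 48.7, 45.4 and 38.3 CPM in ns889, against 17.8, 17.4 and 15.6 CPM in WT. In both conditions every ns889 replicate lay above every WT replicate. The log2 differences were 0.96 ± 0.13 without mold and 1.38 ± 0.13 with mold (edgeR adjusted p = 0.000917 and 5.48e-05), and both passed in all 18 alternatives.

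The mold response of aex-5 in ns889, 0.47 ± 0.13, did not pass (edgeR adjusted p = 0.0724). It passed in 5 of the 18 alternatives, with DESeq2 (0.00519), under RLE size factors (0.0454), with the first run only (0.0426), when replicate 1 of WT without mold was left out (0.0276) and without both libraries that stood apart (0.0105). The difference of its responses was 0.42 ± 0.18 (edgeR adjusted p = 0.870). pamn-1, an amidating enzyme gene, was higher in ns889 without mold (log2 difference 0.35 ± 0.08, edgeR adjusted p = 0.0394). It passed in 5 of 18 alternatives only, and was lost under RLE size factors (0.101), without a filter (0.128), with the first run (0.112) and without any 1 of 10 replicates (0.0595 to 0.170), that is, all but the libraries that stood apart. egl-3 and egl-21, the main neuronal processing enzymes, did not pass in any comparison. Their log2 fold changes on mold were -0.15 ± 0.10 and -0.13 ± 0.11 in ns889 and -0.18 ± 0.10 and -0.10 ± 0.11 in WT.

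Among 11 genes of dense core vesicles, 1 passed: unc-31 was higher in ns889 than in WT on mold, with 7.76, 9.67 and 10.4 CPM against 6.31, 6.87 and 6.14 CPM. This is 9.09% of the list, against 6.73% of all genes tested. The log2 difference of unc-31 was 0.53 ± 0.12 (edgeR adjusted p = 0.0249). It was lost with the first run only (0.0506) and without replicate 2 or 3 of ns889 with mold (0.0829 and 0.108) or replicate 2 or 3 of WT with mold (0.0605 and 0.0779). Of the 7 precursor genes outside both families, none passed in any of the 5 comparisons (1 at an unadjusted p under 0.05 on mold in ns889 and 1 between the genotypes on mold). Among them pdf-1, the pigment dispersing factor gene, had log2 fold changes on mold of -0.28 ± 0.16 in ns889 and -0.19 ± 0.16 in WT. snet-1 had -0.29 ± 0.15 and -0.25 ± 0.15.

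Of 107 receptor genes, 99 were tested. On mold 2 rose in ns889 and 1 in WT, and none fell, which is 2.02% against 3.14% of all genes tested in ns889 and 1.01% against 6.27% in WT. The medians over the list were -0.08 and -0.14. trhr-1, a receptor related to that for thyrotropin-releasing hormone, had 3.94, 4.39 and 4.20 CPM in ns889 with mold, against 1.73, 1.48 and 1.91 CPM without mold. In WT it had 3.17, 2.20 and 4.93 CPM with mold, against 1.59, 1.62 and 1.26 CPM without mold. It was the receptor gene that passed in both genotypes, without overlap in either. Its log2 fold changes were 1.29 ± 0.25 in ns889 and 1.20 ± 0.25 in WT (edgeR adjusted p = 0.0142 and 0.0252).

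The call for trhr-1 in ns889 was lost without ns889 with mold replicate 2 (0.0588) or ns889 without mold replicates 1 (0.0621) or 2 (0.0913). In WT it was lost under the block (0.0541) and when replicate 3 of WT with mold (0.0636) or replicates 2 or 3 of WT without mold (0.0776 and 0.119) was left out. The call in WT passed without both libraries that stood apart, where more genes passed in all (log2 fold change 0.90, edgeR adjusted p = 0.00893). trh-1, which encodes the precursor of its ligands, had 0.663, 0.739 and 0.742 CPM in ns889 with mold, against 1.20, 1.02 and 1.10 CPM without mold, a log2 fold change of -0.63 ± 0.22 that did not pass (edgeR adjusted p = 0.183). In WT trh-1 had 0.944, 1.33 and 0.749 CPM with mold and 1.19, 1.15 and 1.31 CPM without mold.

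frpr-1, of the FMRFamide receptor family, had 1.11, 0.526 and 1.39 CPM in ns889 with mold, against 0.258, 0.422 and 0.282 CPM without mold, a log2 fold change of 1.66 ± 0.35 (edgeR adjusted p = 0.0245). The frpr-1 call was lost in 6 of 18 alternatives, under the block (0.0514) and without ns889 with mold replicates 1 (0.0947) or 3 (0.0916) or any 1 of the 3 ns889 replicates without mold (0.0520 to 0.126). In WT frpr-1 had 0.817, 0.801 and 0.801 CPM with mold, against 0.304, 0.263 and 0.451 CPM without mold. The log2 fold change of 1.25 ± 0.35 had an edgeR adjusted p of 0.0535 and passed in 5 alternatives, among them leaving out replicate 2 of ns889 with mold (0.0355) or replicate 1 of WT without mold (0.0484), and the difference of both responses, 0.41 ± 0.50, one of 0.884. npr-8 was higher in ns889 than in WT both without mold (0.74 ± 0.17, edgeR adjusted p = 0.0408) and with mold (0.78 ± 0.17, 0.0185). It was the only receptor gene past the threshold in each, 1.01% against 2.87% and 6.73% of all genes tested. Without mold it passed in 5 of 18 alternatives, being lost under RLE size factors (0.0506), without a filter (0.103), with the first run (0.112) and without any 1 of 10 replicates (0.0562 to 0.174; all but WT with mold replicates 1 and 3). With mold it was lost without any 1 of the 3 ns889 replicates with mold (0.0507 to 0.0581) or replicate 2 or 3 of WT with mold (0.0638 and 0.0592).

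Neprilysins are membrane peptidases that cleave neuropeptides among other substrates. Of 23 tested, 1 fell on mold in ns889, 4.35% against 3.14% of all genes tested, and 6 fell in WT, 26.1% against 6.27%. None was higher with mold past the threshold, and the median log2 fold changes were -0.29 and -0.71. None passed between the genotypes without mold (2 at an unadjusted p under 0.05). nep-22 passed in both genotypes and in all 18 alternatives of each. It had 101.4, 101.5 and 119.5 CPM in ns889 with mold, against 174.5, 161.5 and 169.2 CPM without mold, a log2 fold change of -0.65 ± 0.10 (edgeR adjusted p = 0.00436). In WT nep-22 had 118.9, 112.0 and 100.5 CPM with mold, against 163.3, 201.8 and 210.9 CPM without mold, a log2 fold change of -0.80 ± 0.10 (edgeR adjusted p = 0.00137). Neither genotype's groups overlapped, and the difference of the responses was 0.15 ± 0.14 (edgeR adjusted p = 0.872).

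The other neprilysin calls in WT depended on the libraries. nep-5 (-1.21 ± 0.27) and nep-9 (-1.07 ± 0.26) had edgeR adjusted p of 0.0297 and 0.0387 and passed in 12 and 9 of 18 alternatives. The list's count of 6 became 1 under the block, and when replicate 2 or 3 of either WT group or replicate 2 of ns889 without mold was left out. It was 2 without ns889 with mold replicate 3 or ns889 without mold replicates 1 or 3, 11 with DESeq2 or when replicate 1 of WT with mold was left out, and 13 when replicate 1 of WT without mold or both libraries that stood apart were left out. Sperm markers moved with them in the same libraries, as given above, and their part was not tested. Between the genotypes on mold nep-10 was higher in ns889, at 8, 9.34 and 9.73 CPM against 5.34, 3.99 and 3.05 CPM in WT (log2 difference 1.13 ± 0.26, edgeR adjusted p = 0.0218). It was the 1 of 23 that passed there, 4.35% against 6.73% of all genes tested. It was lost without replicates 2 or 3 of ns889 with mold (0.0556 and 0.0729) or replicates 2 or 3 of WT with mold (0.0861 and 0.0802).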

How the data were processed

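The authors deposited raw counts per gene, without normalization, in 1 table of 20 sequencing runs. Per the labels' protocols, libraries were made with the Illumina TruSeq stranded mRNA kit after polyA selection. The submitters' processing notes name the WBcel235 genome and STAR 2.4a, featureCounts, FastQC 0.11.12, limma 3.42.2 and edgeR 3.28.1. The sources used here give no featureCounts version, strand setting or annotation release. In each group replicate 1 had 1 run and replicates 2 and 3 had 2 runs, which were summed. The chi-square between runs of 1 replicate, divided by its degrees of freedom, was 1.07 to 1.11.

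Low counts were removed by filterByExpr, libraries were scaled by TMM, and each gene was tested by edgeR's quasi-likelihood test (edgeR 4.0.16, R 4.3.3) in 1 model of 4 group means over 12 replicates, without covariates. Benjamini-Hochberg adjustment ran over 16980 genes, and the threshold was 0.05. TPM used the gene lengths of the table. Of the gene IDs, 44017 had a symbol in the name table; positions are those of the deposited table, and overlaps with other genes come from annotation release 115. Floors cover counting error only.

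The members and lists were chosen with earlier results of these data known. Named were members past the threshold in any of 5 comparisons, the 10 highest flp and nlp genes, flp-1, flp-18, flp-21, nlp-12 and nlp-40, and per other list up to 4 genes past the threshold or the 2 most abundant. The other lists held processing enzymes, vesicle genes, receptors, neprilysins, other precursors and markers of neurons, epidermis, intestine, body wall muscle, pharynx, sperm, oocytes and germline, and somatic gonad. Alternatives were RLE size factors, DESeq2 1.42.0, no filter, 1 run per replicate (the first), a block for the replicate number, leaving out each replicate, and leaving out both libraries that stood apart (replicate 1 of WT without mold, replicate 3 of WT with mold). Figures were drawn with matplotlib 3.10.9.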

Additional observations from a re-analysis of the deposited data

How the results depend on the processing

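Over the 87 neuropeptide genes, 5 comparisons and 18 alternatives there were 7805 values. The calls were kept in 71 values and lost in 37, 29 other values gained a call, and no value past the threshold in either setting changed sign. Of the values past it in neither, 581 changed sign. Leaving out 1 replicate at a time, the neuropeptide genes past the threshold were 1 to 2 on mold in ns889, 0 to 5 on mold in WT, 0 in each case between the genotypes without mold, 0 to 4 between them with mold and 0 in each case for the difference of the responses; 0 in WT came from leaving out replicate 2 of WT with mold, replicates 2 or 3 of WT without mold or replicate 2 of ns889 without mold, and 0 with mold from leaving out replicate 2 of either genotype with mold. DESeq2 called 4 in ns889 and 5 in WT, the first run alone 2 and 1, and leaving out both WT libraries that stood apart 6 and 4, with 5 between the genotypes on mold. Over all genes, in the same order of comparisons, DESeq2 called 983, 2287, 809, 1976 and 76, the fit without both libraries 2024, 3860, 1317, 1873 and 114, and leaving out 1 replicate 209 to 810, 159 to 4810, 319 to 669, 545 to 2185 and 15 to 39. The highest of these came without WT without mold replicate 1 in the ns889 response, the WT response, the genotypes on mold and the difference. Whether the replicate numbers pair the samples was not settled by the labels or the values. Same-numbered replicates of different groups correlated at -0.480 to 0.513 (median 0.0549), and 8 of 18 pairs were over 0.1. Other pairs correlated at -0.524 to 0.611 (median -0.0196), and 6 of 12 replicates correlated best with their own number. With that number as a replicate block, WT had 312 genes past the threshold and 0 neuropeptide genes. The 10 highest genes held 46.5% of the summed level in CPM not divided by length, against 48.4% in TPM. Calls in the marker lists are given beside the share of all genes tested. On mold in ns889, tni-4 fell, 1 of 5 pharynx markers (20% against 3.14%). It passed in 8 of 18 alternatives, with edgeR adjusted p of 0.0507 to 0.199 without any 1 of 8 replicates. On mold in WT, elt-1 fell, 1 of 7 epidermis markers (14.3% against 6.27%). It passed in 7 of 18, with edgeR adjusted p of 0.0538 to 0.185 without any 1 of 10 replicates. Between the genotypes without mold, fer-1 was higher in ns889, 1 of 9 sperm markers (11.1% against 2.87%). On mold, fer-1 and spe-42 were higher in ns889, 2 of 9 (22.2% against 6.73%). There perm-4 and perm-2 were lower, 2 of 10 oocyte and germline markers (20% against 6.73%), in 17 and 14 of 18 alternatives. No intestine or somatic gonad marker passed. Counting depth limits mainly the genes near or below 1 TPM.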
